A study of Mus musculus with 20 samples.

Results

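Fatty acids enter cells through transporters and binding proteins, are activated to acyl-CoA, and are either burned in mitochondria and peroxisomes or stored as triglyceride in lipid droplets. Beta-oxidation shortens an acyl-CoA through repeated rounds of dehydrogenation, hydration, a second oxidation and thiolysis, and the PPAR nuclear receptors control many of the genes involved. In the ovary, lipid droplets of luteal and interstitial cells also hold the cholesterol esters used for steroid synthesis, and oocytes depend on fatty acid oxidation during maturation. The genes described here are 47 genes of these steps, taken from a list by gene symbol and matched to the Ensembl identifiers of the count tables, so that 47 of 54838 measured genes are members. All 47 were found. The list was chosen with earlier results of these data known.

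The counts are from whole ovaries of 20 female mice aged 77 days, sequenced from the 3' end of the mRNA, with 1 library per animal. FL1 is a mouse line selected over many generations for large litters, and ctrl is the unselected line bred beside it (genotype tag WT). Both descend from the same outbred stock, and the labels give no transgene or treatment. Each line was sampled in estrus and in diestrus, as read from vaginal smears, with 5 libraries for each of the 4 groups. The source name of every library reads FL1, so the line was taken from the title and the genotype tag, which gave the same line for all 20. Each line is 1 population kept apart for generations, so a line difference cannot be told apart from drift between the populations.

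Totals ranged from 5991223 to 10352718 counts per library. Levels are given as CPM, counts scaled to the library total with TMM factors over the 20 libraries. Because this method yields about 1 read per transcript whatever its length, CPM of different genes can be set side by side, within the limits of 3' end annotation. The marker lists gave an ovarian picture, with all 10 oocyte, all 9 luteal and 8 of 9 granulosa genes high enough for testing in the line comparisons and none of the 6 oviduct genes, whose summed level was 0.703 to 3.31 CPM in ctrl estrus and 2.78 to 5.25 CPM in FL1 estrus. The 5th ctrl estrus library stood apart from its group. Its median distance to the other 4 libraries over log2 CPM was 100, against 71.7 to 77 for those 4. Its luteal list summed to 42365 CPM, the highest of its group, and its granulosa list to 1354 CPM, the lowest of the 20 libraries. Results that rest on this library are given with and without it. A count of 3, the level below which a gene was taken as not detected, equals 0.290 to 0.501 CPM of the library totals, without TMM factors.

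The members spanned about 3 orders of magnitude of level. Over the 20 libraries 16 members averaged at least 100 CPM, 22 lay between 20 and 100 CPM, 7 between 1 and 20 CPM and 2 below 1 CPM. The highest was Acsl4, a long-chain acyl-CoA synthetase with a preference for arachidonate, at a mean of 715 CPM. The next highest means over the 20 libraries were those of Hadh, the mitochondrial 3-hydroxyacyl-CoA dehydrogenase, at 382 CPM, of Hadha, the alpha subunit of the trifunctional protein, at 316 CPM, and of the thiolase Acaa2 at 315 CPM. These 3 could not be ranked against each other, since their libraries overlapped, ranging from 243 to 499.9 CPM for Hadh, from 254 to 373 CPM for Hadha and from 208 to 441 CPM for Acaa2, and in ctrl estrus the mean of Hadh (302 CPM) was the lowest of the 3. Cpt1a, the rate-limiting carnitine palmitoyltransferase of mitochondrial entry, averaged 246 CPM. At the low end were Ehhadh, a peroxisomal bifunctional enzyme, at 0.486 CPM and Cidec, a lipid droplet fusion protein of fat cells, at 0.927 CPM. The 47 members summed to 4504 ± 514 CPM in ctrl estrus, 4824 ± 405 CPM in FL1 estrus, 4870 ± 392.5 CPM in ctrl diestrus and 5645 ± 178 CPM in FL1 diestrus (SD, n = 5), which is given without a test. Such sums are weighted to the highest members. Acsl4 alone averaged 677 ± 217 CPM in ctrl diestrus and 1016 ± 156 CPM in FL1 diestrus (SD), and it was not called between the lines. Ehhadh and Cidec did not pass the filter on low counts in the line comparisons, which left 45 members tested. Cidec passed only in the FL1 stage fit and in the interaction fit.

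Of the 47 members, 20 were called in at least 1 of the 5 comparisons and 27 in none. A call is an adjusted p of at most 0.05 from edgeR's quasi-likelihood test over all genes tested. Between the lines 5 of 45 tested members were called in estrus, beside 2.33% of all genes, and 5 of 45 in diestrus, beside 4.11%, and no member was called in both. In 31 of the 45 members tested in both stages (68.9%), the line difference had the same sign in estrus and diestrus, where 55.1% of all genes tested in both did so. Between the stages 2 of 45 were called in ctrl, beside 2.85% of all genes, and 13 of 46 in FL1, beside 15.9%. In the line-by-stage interaction 1 of 46 was called, beside 0.0565%. Since the members were chosen with earlier results of these data known, these shares do not test whether the module differs more than other genes. The map of log2FC shows every member by role.

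**Figure D1:**
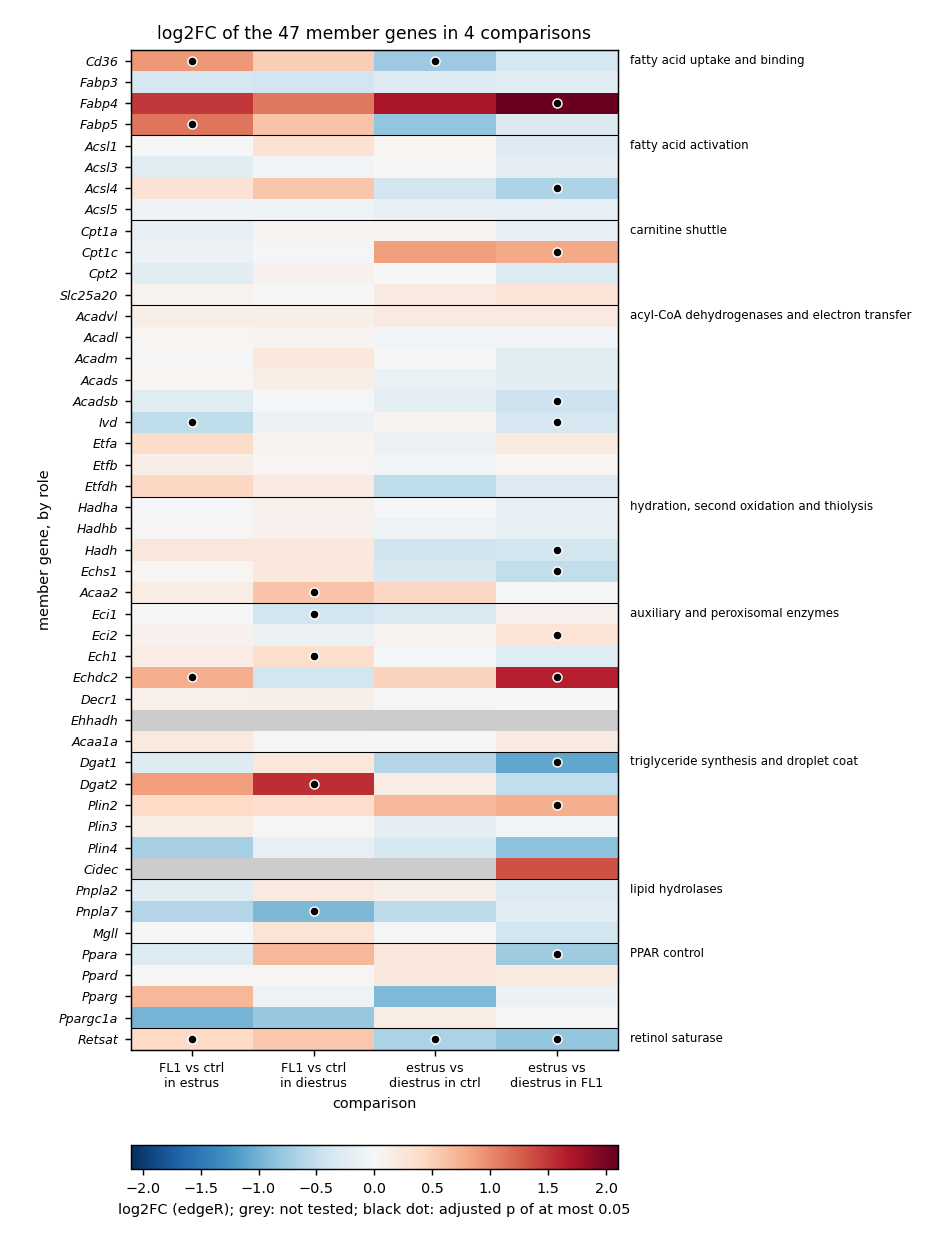
Colour gives the log2FC of each of the 47 members (rows, grouped by role) in 4 comparisons (columns), FL1 over ctrl in the left 2 columns and estrus over diestrus in the right 2, while grey cells were not tested and black dots mark an adjusted p of at most 0.05. The 13 dots of the FL1 stage column, against 2 in the ctrl stage column, and the strong colours of Fabp4 (2.08 in the FL1 stage column), Echdc2 (1.63 there) and Dgat2 (1.55 in the diestrus line column) are to be seen.

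The members' promoters were read for the binding letters of PPAR and related nuclear receptors, since the module holds 3 PPAR genes. In the 250 bases before the start, the half-site AGGTCA was searched on both strands, as was a direct repeat of 2 such half-sites spaced by 1 base (DR1, the arrangement PPAR with RXR prefers), with up to 2 mismatches allowed. A repeat can overlap a half-site. RefSeq's promoter table (GRCm38.p6) held 41 of the 47 members, with none for Fabp4, Fabp5, Acaa2, Decr1, Dgat1 and Dgat2. The half-site occurred in 8 of 41 members (19.5%) and in 15.8% of the 27025 genes of the table. The repeat occurred in 4 of 41 (9.76%), namely Cd36, Etfa, Echs1 and Plin2, and in 3.72% of all genes. Each repeat in these 4 members had 2 mismatches, the most allowed. These are matches of letters and not bound sites. Shown are the 3 members with a repeat that were also called in a comparison, and Echdc2, the member called in the line-by-stage interaction, in which neither motif was found. Sequences run 5′ to 3′ on the gene's strand, capitals mark the half-site or repeat, and the windows are chr5:17835897-17836146 (minus strand), chr4:86670060-86670309 (minus strand), chr7:140116422-140116671 (minus strand) and chr4:108165187-108165436 (plus strand).
Cd36: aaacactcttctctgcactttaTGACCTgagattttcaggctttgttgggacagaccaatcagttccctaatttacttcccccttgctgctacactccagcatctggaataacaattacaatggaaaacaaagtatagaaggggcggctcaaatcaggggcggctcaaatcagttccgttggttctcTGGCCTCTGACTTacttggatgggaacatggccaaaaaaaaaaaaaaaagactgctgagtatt
Plin2: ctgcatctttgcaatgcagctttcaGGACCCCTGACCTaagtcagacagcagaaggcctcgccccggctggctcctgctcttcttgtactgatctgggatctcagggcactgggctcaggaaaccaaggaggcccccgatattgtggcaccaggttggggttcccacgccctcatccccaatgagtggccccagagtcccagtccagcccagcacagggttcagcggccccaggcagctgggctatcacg
Echs1: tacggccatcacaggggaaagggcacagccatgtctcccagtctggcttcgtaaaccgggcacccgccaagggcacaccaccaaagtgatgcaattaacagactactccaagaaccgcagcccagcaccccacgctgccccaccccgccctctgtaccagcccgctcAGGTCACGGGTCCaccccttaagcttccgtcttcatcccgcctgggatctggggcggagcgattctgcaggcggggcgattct
Echdc2: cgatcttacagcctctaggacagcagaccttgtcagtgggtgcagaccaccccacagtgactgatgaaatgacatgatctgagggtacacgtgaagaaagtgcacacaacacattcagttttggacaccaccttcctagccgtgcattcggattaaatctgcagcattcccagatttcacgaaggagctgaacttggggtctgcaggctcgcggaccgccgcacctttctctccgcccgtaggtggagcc
In Plin2 the half-site is part of the repeat, 225 to 213 bases before the start. Echs1 holds both in the same way, 83 to 71 bases before the start. In Cd36 the half-site and the repeat are apart, the repeat lying 63 to 51 bases before the start. The Cd36 window belongs to a start inside the annotated gene span, and the gene has further starts not examined here.

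The comparison of FL1 with ctrl in estrus asks how the ovary of the selected line differs at the stage of ovulation. There, 2 of 4 uptake and binding genes, 1 of 6 tested auxiliary enzymes and Retsat were stronger expressed in FL1. Cd36, the membrane transporter of long-chain fatty acids, was higher (log2FC 0.91 ± 0.19, SE), as were the fatty acid binding protein Fabp5 (1.12 ± 0.26), the mitochondrial hydratase relative Echdc2 (0.76 ± 0.15) and the retinol saturase Retsat (0.42 ± 0.10). Ivd, isovaleryl-CoA dehydrogenase of leucine breakdown, was lower (-0.53 ± 0.12). These were 5 of 45 members tested (edgeR, 4 higher and 1 lower), beside 311 of all 13374 genes, 1.07% called higher and 1.26% lower. The median log2FC was 0.04 over the members and -0.01 over all genes tested. In whole ovaries, fewer cells of a type and less RNA per cell cannot be told apart, which holds for every value here.

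Cd36 (ENSMUSG00000002944, chr5:17781690-17888801, minus strand) measured 16.6, 12.1, 12.3, 13.0 and 10.6 CPM in the 5 ctrl estrus libraries and 25.3, 27.0, 15.1, 27.5 and 27.2 CPM in FL1 estrus. The 3rd FL1 library lay inside the ctrl range and the other 4 above it (adjusted p = 0.0228, edgeR). The call was kept in 4 of 10 fits that left out 1 library. It was lost without ctrl libraries 2 or 4 or without FL1 libraries 1, 2, 4 or 5, with adjusted p of 0.00356 to 0.0684 over the 10 fits. In diestrus Cd36 measured 23.7, 19.3, 18.5, 23.0 and 24.7 CPM in ctrl and 36.5, 20.1, 34.5, 31.6 and 35.0 CPM in FL1, with a log2FC of 0.52 ± 0.16 (SE) that was not called (adjusted p = 0.0858, edgeR).

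Fabp5 (ENSMUSG00000027533, chr3:10012548-10016607, plus strand), which carries fatty acids in the cytosol, measured 4.69, 9.93, 15.4, 8.85 and 14.2 CPM in ctrl estrus and 24.5, 27.1, 20.4, 24.5 and 18.9 CPM in FL1 estrus. All 5 FL1 libraries lay above all ctrl libraries (adjusted p = 0.0376, edgeR). The call was kept in 3 of 10 fits with 1 library left out, those without ctrl libraries 1, 3 or 5, with adjusted p of 0.0173 to 0.1. In diestrus the difference had the same sign, log2FC 0.60 ± 0.18 (SE), adjusted p = 0.0741 (edgeR), and FL1 measured 40.1, 22.0, 24.1, 27.7 and 28.5 CPM against 16.1, 15.2, 24.3, 18.1 and 20.1 CPM in ctrl.

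Fabp4 (ENSMUSG00000062515, chr3:10204088-10208576, minus strand), the fatty acid binding protein of fat cells and of some endothelial cells and macrophages, had the highest log2FC of the tested members in estrus, 1.49 ± 0.48 (SE), and was not called (adjusted p = 0.136, edgeR). The ctrl estrus libraries measured 6.97, 5.63, 5.22, 10.5 and 33.6 CPM and the FL1 estrus libraries 59.0, 41.2, 18.3, 22.6 and 30.1 CPM. Apart from the 5th ctrl library, all ctrl libraries lay below all FL1 libraries. Without that library the log2FC was 2.25 ± 0.33 (SE) with an adjusted p of 0.00164 (edgeR). With all libraries the difference passed the threshold with limma-voom (log2FC 1.90, adjusted p = 0.0159). It also did so with no filter beyond 1 count (log2FC 1.49, adjusted p = 0.0137, edgeR). Throughout, limma-voom was run with sample weights, which can give a deviating library less weight. In diestrus FL1 measured 8.02, 12.8, 4.88, 3.54 and 11.0 CPM and ctrl 4.15, 2.33, 2.55, 7.40 and 2.31 CPM, groups that overlapped (log2FC 1.11 ± 0.40 SE, adjusted p = 0.158, edgeR).

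Markers of fat cells were measured beside Fabp4. Car3, a carbonic anhydrase abundant in fat cells, measured 4.15, 9.76, 8.998, 13.8 and 30.6 CPM in ctrl estrus and 42.9, 38.8, 14.8, 28.2 and 31.4 CPM in FL1 estrus. The serine protease Cfd (adipsin) measured 3.89, 0.662, 4.17, 4.71 and 66.3 CPM and 49.6, 6.90, 20.7, 5.02 and 27.6 CPM, and the hormone Adipoq 0, 0, 0.522, 0.753 and 13.0 CPM and 5.58, 0.8997, 3.67, 0.738 and 2.25 CPM. The 5th ctrl library was the highest of its group in all of these. Of the 10 listed adipocyte genes 5 passed the filter in this comparison. None of the 5 was called by edgeR, with 2 at an unadjusted p of less than 0.05, and 1 was called by DESeq2 and 1 by limma-voom. Car3 had a line difference of 1.22 ± 0.41 (log2FC, SE, adjusted p = 0.157, edgeR) and Nnat of 0.67 ± 0.20 (adjusted p = 0.107). The list summed to 145 to 317 CPM in ctrl estrus, 199.8 to 328 CPM in FL1 estrus, 216 to 304 CPM in ctrl diestrus and 236 to 282 CPM in FL1 diestrus. Most of that sum was Lipe, Nnat and Plin1, at 44.1 to 122 CPM, 52.0 to 173 CPM and 14.1 to 44.4 CPM over the 20 libraries. Of the defining markers, Adipoq was at 0 in 2 ctrl estrus libraries and Lep in all FL1 estrus libraries, which allows up to 3 counts. Per the study's methods, fat, oviduct and tunica albuginea were taken off the ovaries before freezing. The part of fat tissue in the Fabp4 values was not tested.

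**Figure D2:**
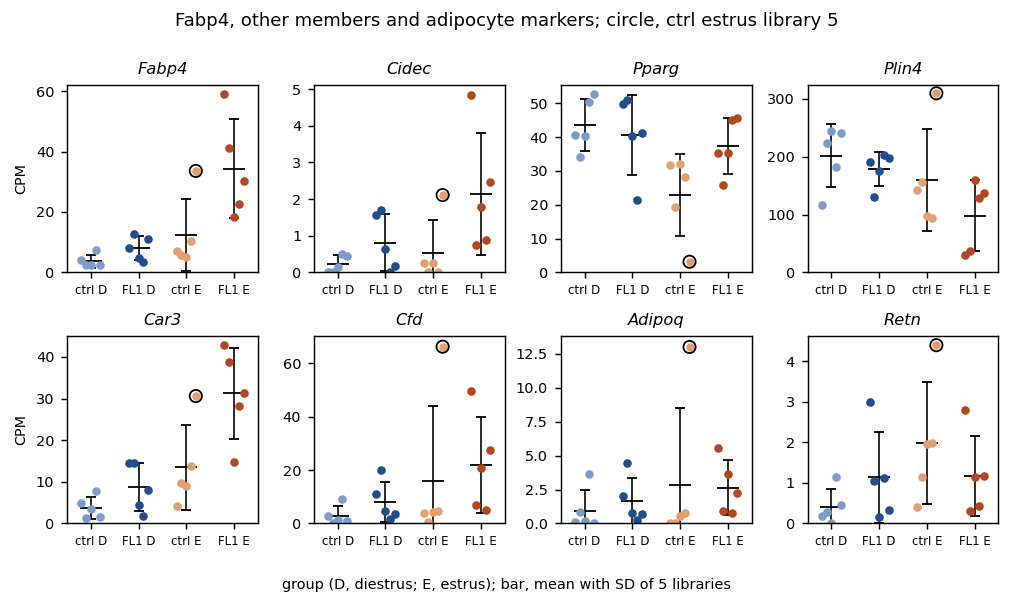
CPM (vertical axis, from 0) of Fabp4, 3 other members and 4 adipocyte markers in each of the 20 libraries, by group (horizontal axis; D, diestrus; E, estrus), with the mean and SD of 5 libraries. The circled 5th ctrl estrus library is the highest of its group for Fabp4, Cidec, Plin4 and all 4 markers and the lowest for Pparg, at 3.16 CPM.

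Echdc2 (ENSMUSG00000028601, chr4:108165437-108179308, plus strand), named for its enoyl-CoA hydratase domain, measured 51.2, 81.8, 61.3, 68.3 and 85.4 CPM in ctrl estrus and 93.8, 101, 145, 117 and 133 CPM in FL1 estrus. The groups did not overlap (adjusted p = 0.0191, edgeR). The call was lost in 1 of 10 fits, without FL1 library 5 (adjusted p = 0.06, edgeR). In diestrus the sign was the opposite, with 40.0, 56.6, 45.4, 60.8 and 46.6 CPM in ctrl and 29.2, 43.0, 36.4, 38.6 and 43.6 CPM in FL1 (log2FC -0.39 ± 0.14, SE), which was not called (adjusted p = 0.146, edgeR) and whose groups overlapped.

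Retsat (ENSMUSG00000056666, chr6:72598475-72608425, plus strand), which saturates retinol and is a PPAR target in fat cells, measured 55.9, 54.0, 57.9, 50.4 and 56.3 CPM in ctrl estrus and 67.1, 67.5, 81.9, 69.2 and 80.8 CPM in FL1 estrus. All FL1 libraries lay above the ctrl libraries (adjusted p = 0.0412, edgeR). The call held in 1 of 10 fits with a library left out, the fit without ctrl library 5, at adjusted p of 0.0333 to 0.108. In diestrus FL1 was higher too but not called (log2FC 0.57 ± 0.17 SE, adjusted p = 0.0736, edgeR).

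Ivd (ENSMUSG00000027332, chr2:118861954-118882909, plus strand) measured 85.6, 85.2, 99.5, 68.4 and 78.9 CPM in ctrl estrus and 59.0, 52.8, 70.8, 49.7 and 57.3 CPM in FL1 estrus. The groups overlapped only at the lowest ctrl and the highest FL1 library (adjusted p = 0.0412, edgeR). The call held in 3 of 10 fits, those without ctrl library 4 or 5 or FL1 library 3. A stretch near the 3' end of Ivd also occurs in Srpk1, and with the counts of both genes summed the call was lost (log2FC -0.28, adjusted p = 0.201, edgeR), so that the value of Ivd is uncertain.

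Among all 45 tested members, 4 had estrus libraries without overlap between the lines, beside 4.89% of all genes tested. These were Fabp5, Echdc2, Retsat and the lysophospholipase Pnpla7, which was lower in all 5 FL1 libraries and not called there (log2FC -0.61 ± 0.20 SE, adjusted p = 0.136, edgeR). Leaving out the 5th ctrl library raised the count of called members to 7 of 45, with 3.06% of all genes called. The 5 were kept and Fabp4 and Plin2 were added, Plin2 with a log2FC of 0.64 ± 0.16 (SE) and an adjusted p of 0.0478 (edgeR). Without the 5th FL1 library 0 of 45 members were called by edgeR, 8 at an unadjusted p of less than 0.05, while DESeq2 and limma-voom each called 6 with all libraries.

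The same comparison in diestrus, the stage between ovulations, named 5 other members of 45. The thiolase Acaa2, the peroxisomal and mitochondrial isomerase Ech1 and the acyltransferase Dgat2 were stronger expressed in FL1, and the isomerase Eci1 and Pnpla7 weaker. Of all 13259 genes 545 were called (2.29% higher, 1.82% lower). The median log2FC was 0.09 over the members and -0.01 over all genes. Leaving out 1 library gave from 2 called members, without the 1st or the 5th FL1 library, to 8, without the 3rd ctrl library.

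Acaa2 (ENSMUSG00000036880), which performs the thiolysis step of mitochondrial beta-oxidation, measured 273.3, 242, 208, 233 and 216 CPM in ctrl diestrus and 340.1, 297, 348, 357 and 441 CPM in FL1 diestrus. The lowest FL1 library was above the highest ctrl library (log2FC 0.60 ± 0.11 SE, adjusted p = 0.0062, edgeR), and each of the 10 fits that dropped a library kept the call. The estrus groups overlapped (log2FC 0.16 ± 0.12, SE).

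Ech1 (ENSMUSG00000053898, chr7:28825217-28832247, plus strand), an isomerase for unsaturated fatty acids, measured 197, 206, 219, 230.2 and 194 CPM in ctrl diestrus and 292, 268, 246 and 288 CPM in the first 4 FL1 diestrus libraries, with the 5th (1567 counts) between the 3rd and the 2nd of these, so that the lines did not overlap (log2FC 0.37 ± 0.08 SE, adjusted p = 0.019, edgeR). The call was lost without FL1 libraries 1 or 4 (highest adjusted p = 0.0551, edgeR). Eci1 (ENSMUSG00000024132, chr17:24426641-24439348, plus strand), the enoyl-CoA isomerase of the same pathway, moved the other way, with 73.0, 78.1, 65.8, 89.1 and 73.2 CPM in ctrl and 55.4, 56.1, 64.7, 48.1 and 63.0 CPM in FL1. All FL1 libraries were lower (log2FC -0.40 ± 0.11 SE, adjusted p = 0.0468, edgeR), but the call held in 1 of 10 fits, the fit without ctrl library 3.

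Dgat2 (ENSMUSG00000030747, chr7:99153658-99182719, minus strand), an enzyme of the last step of triglyceride synthesis, had the highest log2FC of the members in diestrus. The ctrl libraries measured 4.53, 7.11, 9.91, 5.43 and 2.77 CPM and the FL1 libraries 18.2, 7.85, 15.0, 13.3 and 33.0 CPM. The 2nd FL1 library lay inside the ctrl range and the 5th was far above the others (log2FC 1.55 ± 0.37 SE, adjusted p = 0.029, edgeR). The call was kept in 4 of 10 fits, and it was lost without ctrl libraries 1, 4 or 5 or FL1 libraries 1, 3 or 5. In estrus FL1 was again higher, 13.5, 11.7, 16.3, 9.15 and 10.1 CPM against 8.57, 5.13, 9.39, 6.40 and 3.34 CPM, and not called (adjusted p = 0.12, edgeR). Dgat1, the other acyltransferase of this step, was not called between the lines in either stage.

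Pnpla7 (ENSMUSG00000036833, chr2:24976033-25054057, plus strand), a lysophospholipase at lipid droplets, had the lowest log2FC of the members. The ctrl diestrus libraries measured 17.0, 41.0, 31.1, 36.3 and 25.4 CPM and the FL1 diestrus libraries 15.0, 14.5, 17.6, 17.98 and 13.0 CPM. Only the lowest ctrl library reached into the FL1 range (log2FC -0.94 ± 0.21 SE, adjusted p = 0.0179, edgeR). The call was lost in 1 of 10 fits, without FL1 library 5 (adjusted p = 0.0505, edgeR). Other genes overlap its span on both strands, and whether the counting used strand was not given in the sources used here.

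Of the 45 members, Acaa2, Ech1 and Eci1 had diestrus libraries without overlap, beside 5.45% of all genes. Of the markers of other cell types 2 of 70 tested (2.86%) were called between the lines in estrus, beside 2.33% of all genes. They were the macrophage gene Lyz2 (1.10) and the surface epithelium gene Upk3b (0.69), both higher in FL1. In diestrus 7 of 70 (10%) were called, beside 4.11% of all genes. Higher in FL1 were Lyz2 (1.31) and Cd68 (0.79) of macrophages, the luteal gene Lhcgr (1.43), Foxl2 of granulosa cells (0.53), Egfl7 of endothelium (0.65) and the globin Hba-a2 (4.77), and Upk1b of the surface epithelium was lower (-2.33, all log2FC). Most macrophage genes did not follow Lyz2, since 5 of 8 had a negative log2FC in each stage, with medians of -0.31 in estrus and -0.19 in diestrus. The summed level of the list was higher in FL1, with overlapping libraries. Its means were 427 CPM against 320 CPM in ctrl in estrus, and 375 CPM against 245 CPM in diestrus. In diestrus 3 of 9 luteal, 3 of 8 tested granulosa and 3 of 9 endothelial genes were negative, with medians of 0.02, 0.01 and 0.03. All 5 blood genes were positive (median 0.42), and 5 of 6 surface epithelium genes were negative (median -0.15). The part of these markers in the members' values was not tested. The plot of the 10 called members gives all 20 libraries.

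**Figure D3:**
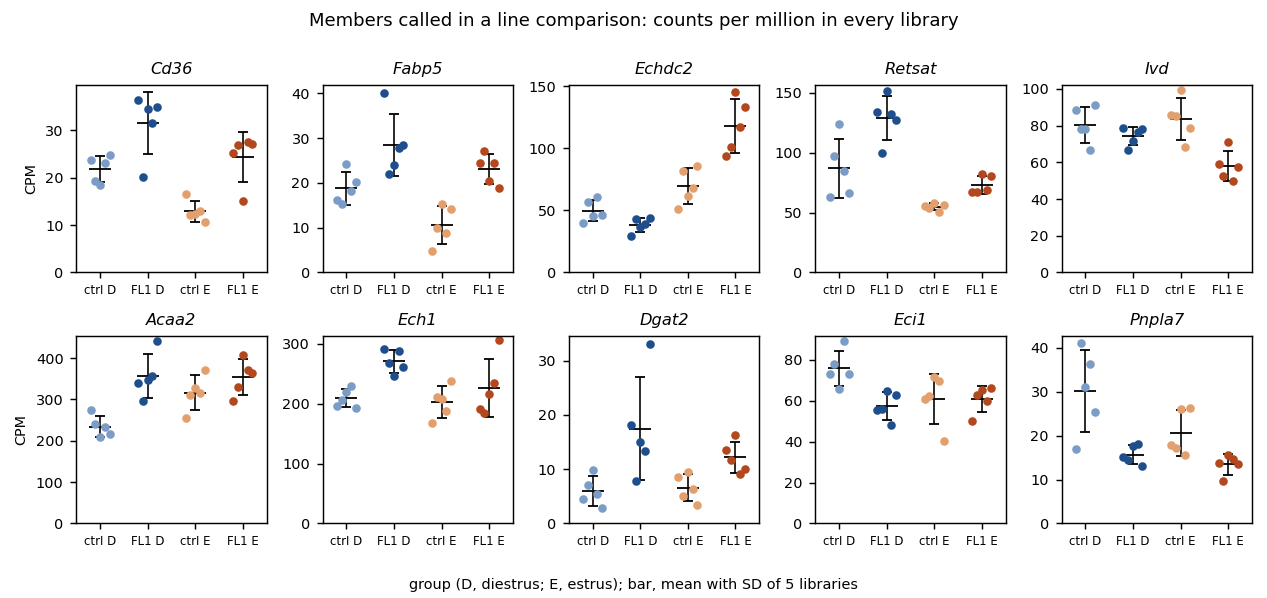
CPM (vertical axis, from 0) of the 10 members called between the lines, in each of the 20 libraries by group (horizontal axis; D, diestrus; E, estrus), with the mean and SD of 5 libraries. Cd36, Fabp5, Echdc2, Retsat and Ivd (upper row) were called in estrus and Acaa2, Ech1, Dgat2, Eci1 and Pnpla7 (lower row) in diestrus, and the 5 FL1 libraries of Acaa2 in diestrus, 297 to 441 CPM, lie above the 5 ctrl libraries.

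The PPAR genes themselves were not called between the lines. Ppara measured 8.98, 13.2, 15.0, 9.79 and 9.67 CPM in ctrl estrus and 9.54, 10.7, 10.2, 9.002 and 6.95 CPM in FL1 estrus. In diestrus it measured 12.9, 6.70, 8.41, 9.04 and 10.5 CPM in ctrl and 10.0, 18.8, 16.2, 23.1 and 9.16 CPM in FL1. The line differences were -0.29 ± 0.20 and 0.69 ± 0.26 (log2FC, SE), opposite in sign.

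Pparg measured 31.9, 19.4, 32.0, 28.1 and 3.16 CPM in ctrl estrus and 35.4, 25.8, 35.3, 45.0 and 45.8 CPM in FL1 estrus. The 5th ctrl library was far below the others. In diestrus the values were 40.8, 34.2, 40.4, 50.3 and 52.9 CPM in ctrl and 49.7, 50.9, 40.5, 21.4 and 41.1 CPM in FL1. The estrus difference was 0.70 ± 0.38 with all libraries and 0.43 ± 0.18 (SE) without that library (adjusted p = 0.401 and 0.245, edgeR). The diestrus difference was -0.10 ± 0.20 (adjusted p = 0.847).

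Ppard measured 10.9, 13.7, 15.7, 12.1 and 17.9 CPM in ctrl estrus and 16.3, 13.7, 14.8, 13.7 and 11.0 CPM in FL1 estrus, and 13.8, 12.2, 14.3, 11.2 and 8.15 CPM in ctrl diestrus and 7.44, 12.4, 13.1, 17.3 and 10.7 CPM in FL1 diestrus. All 4 groups overlapped. Its line differences of -0.01 ± 0.18 and 0.03 ± 0.22 (log2FC, SE) changed sign with the setting used.

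Ppargc1a, the coactivator of PPAR and of mitochondrial genes, was low, at 1.47, 3.81, 0.782, 2.64 and 8.97 CPM in ctrl estrus and 1.47, 0.8997, 3.25, 2.36 and 0.748 CPM in FL1 estrus. In diestrus it measured 4.06, 2.599, 2.25, 2.302 and 4.15 CPM in ctrl and 1.00, 1.18, 3.31, 2.12 and 1.33 CPM in FL1. It had the lowest log2FC of the members in estrus, -0.97 ± 0.60 (SE), which rests on the 5th ctrl library, and without it the value was -0.29 ± 0.53 (SE) (adjusted p = 0.465 and 0.838, edgeR).

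The stages were compared within each line. In ctrl, Cd36 fell in estrus relative to diestrus and so did Retsat, the 2 members of 45 called, beside 380 of 13334 genes (1.78% higher, 1.06% lower). The median log2FC was -0.04 over the members and -0.01 over all genes. All 5 ctrl estrus libraries of Cd36 lay below all ctrl diestrus libraries (log2FC -0.76 ± 0.16 SE, adjusted p = 0.0228, edgeR), with the per-library values given above. Retsat measured 63.2, 97.1, 124, 84.5 and 66.5 CPM in ctrl diestrus, and all estrus libraries were below (log2FC -0.67 ± 0.16 SE, adjusted p = 0.0452, edgeR). The Cd36 call held in 6 of 10 fits and was lost without ctrl estrus libraries 2, 3 or 4 or ctrl diestrus library 4. The Retsat call held in 2 of 10 fits, those without ctrl diestrus library 1 or 5. Without the 5th ctrl estrus library 1 member was called, Cd36, beside 3.81% of all genes. Without the 2nd or the 4th ctrl estrus library or the 4th ctrl diestrus library 0 members were called by edgeR (11, 12 and 10 at an unadjusted p of less than 0.05), and without the 1st ctrl estrus or the 1st ctrl diestrus library 3 were. With all libraries DESeq2 called 8 members and limma-voom 6.

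Libraries of the 2 ctrl stages did not overlap for 5 of 45 members, beside 4.52% of all genes. Besides Cd36 and Retsat these were Echs1 and Pparg, lower in estrus, and Cpt1c, higher in estrus, none of them called. Cpt1c, the brain-type carnitine palmitoyltransferase, measured 3.21, 3.97, 2.70, 4.44 and 4.00 CPM in ctrl diestrus and 6.16, 5.30, 6.13, 7.43 and 8.79 CPM in ctrl estrus (adjusted p = 0.0798, edgeR). For Pparg the difference of -0.92 ± 0.39 (SE) with all libraries was -0.65 ± 0.17 (SE) without the 5th ctrl estrus library (adjusted p = 0.26 and 0.0563, edgeR).

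In FL1 the stages differed at 13 of 46 members tested, 5 higher and 8 lower in estrus. Of all 13350 genes 2123 were called (7.42% higher, 8.49% lower). The median log2FC was -0.18 over the members and 0.01 over all genes. Higher in estrus were Fabp4, Echdc2, the droplet coat protein Plin2, Cpt1c and the isomerase Eci2. Lower in estrus were Acsl4, the dehydrogenases Acadsb, Ivd and Hadh, the hydratase Echs1, Dgat1, Ppara and Retsat. By role, 2 of 5 genes of hydration, second oxidation and thiolysis and 2 of 9 acyl-CoA dehydrogenase and electron transfer genes fell and none rose, while 2 of 6 tested auxiliary enzymes rose and none fell by edgeR.

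Fabp4 had the largest change, with 8.02, 12.8, 4.88, 3.54 and 11.0 CPM in FL1 diestrus and 59.0, 41.2, 18.3, 22.6 and 30.1 CPM in FL1 estrus. All estrus libraries lay above all diestrus libraries (log2FC 2.08 ± 0.34 SE, adjusted p = 5.28e-04, edgeR), and the call held in all 10 fits with 1 library left out. Car3 of the adipocyte list was called in the same direction (log2FC 1.83 ± 0.39 SE, adjusted p = 0.00419, edgeR), and in FL1 diestrus it measured 14.5, 14.5, 4.41, 1.84 and 7.99 CPM. The other adipocyte gene called, the hormone-sensitive lipase Lipe, fell (log2FC -0.59 ± 0.12 SE, adjusted p = 0.00248, edgeR), so that of 6 tested 1 was called higher and 1 lower. Of these 6 genes, 4 had a positive and 2 a negative log2FC, with a median of 0.54. Over the 20 libraries Lipe measured 44.1 to 122 CPM and Adipoq 0 to 13.0 CPM. Cidec, the fat-cell droplet protein, measured 1.57, 1.70, 0.630, 0 and 0.167 CPM in FL1 diestrus and 4.84, 0.750, 1.78, 0.885 and 2.46 CPM in FL1 estrus (log2FC 1.34 ± 0.67 SE, adjusted p = 0.192, edgeR). In ctrl, Fabp4 was 4.15, 2.33, 2.55, 7.40 and 2.31 CPM in diestrus, with a stage difference of 1.71 ± 0.54 (log2FC, SE) that was not called (adjusted p = 0.122, edgeR) and that was 0.92 ± 0.38 (SE) without the 5th ctrl estrus library (adjusted p = 0.221). With all libraries this ctrl stage difference passed the threshold with DESeq2 (adjusted p = 0.017). It also did so in edgeR with no filter beyond 1 count (adjusted p = 0.0404) and in 1 fit of all 20 libraries (adjusted p = 0.0459).

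Echdc2 rose in FL1 estrus without overlap (log2FC 1.63 ± 0.13 SE, adjusted p = 5.06e-07, edgeR), from the diestrus and estrus values given above, and held in all 10 fits. Plin2 (ENSMUSG00000028494, chr4:86648386-86670060, minus strand), which coats lipid droplets in most cells, measured 63.3, 83.8, 73.4, 74.5 and 85.6 CPM in FL1 diestrus and 108, 113, 108, 159 and 155 CPM in FL1 estrus, again without overlap (log2FC 0.76 ± 0.13 SE, adjusted p = 5.88e-04, edgeR). In ctrl it measured 61.3, 66.1, 59.5, 65.1 and 45.95 CPM in diestrus and 62.2, 106, 81.6, 81.4 and 149 CPM in estrus, a difference of 0.68 ± 0.20 (log2FC, SE) that was not called (adjusted p = 0.091, edgeR).

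Cpt1c (ENSMUSG00000007783, chr7:44959372-44974851, minus strand) measured 4.01, 3.92, 2.99, 4.25 and 2.67 CPM in FL1 diestrus and 5.29, 6.75, 5.24, 7.67 and 6.20 CPM in FL1 estrus (log2FC 0.79 ± 0.25 SE, adjusted p = 0.0389, edgeR), and Eci2 (ENSMUSG00000021417, chr13:34977748-35027096, minus strand) 80.7, 80.4, 76.7, 82.9 and 68.0 CPM and 92.5, 95.4, 87.8, 96.1 and 101 CPM (log2FC 0.28 ± 0.08 SE, adjusted p = 0.0276, edgeR). Neither overlapped between the stages. The Cpt1c call held in 3 of 10 fits with 1 library left out (adjusted p of 0.0383 to 0.104), those without FL1 estrus library 1 or 3 or FL1 diestrus library 4. The Eci2 call held in 6 of 10 fits and was lost without FL1 estrus libraries 4 or 5 or FL1 diestrus libraries 3 or 5.

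Of the members that fell, Dgat1 (ENSMUSG00000022555, chr15:76502015-76511953, minus strand), the other diacylglycerol acyltransferase, had the largest change. It measured 84.6, 42.0, 67.2, 51.1 and 72.1 CPM in FL1 diestrus and 28.3, 17.7, 33.3, 32.9 and 35.9 CPM in FL1 estrus, without overlap (log2FC -1.09 ± 0.19 SE, adjusted p = 0.00103, edgeR). Retsat fell from 134, 99.9, 151, 133 and 128 CPM in FL1 diestrus to the estrus values given above, also without overlap (log2FC -0.82 ± 0.11 SE, adjusted p = 7.36e-05, edgeR). Acsl4 (ENSMUSG00000031278, chrX:142317993-142390535, minus strand) measured 925, 1224, 1128, 959 and 842 CPM in FL1 diestrus and 644, 487, 856, 529 and 718 CPM in FL1 estrus, overlapping at 1 library of each stage (log2FC -0.65 ± 0.14 SE, adjusted p = 0.00477, edgeR). These 3 calls held in all 10 fits.

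The enzymes Hadh, Echs1 and Acadsb changed less. Hadh (ENSMUSG00000027984, chr3:131233419-131272101, minus strand) measured 499.9, 408, 496, 469 and 461 CPM in FL1 diestrus and 355, 371, 339, 349 and 369.5 CPM in FL1 estrus (log2FC -0.39 ± 0.08 SE, adjusted p = 0.00258, edgeR). Echs1 (ENSMUSG00000025465, chr7:140105710-140116476, minus strand), the short-chain enoyl-CoA hydratase, measured 253, 195, 264, 228 and 264 CPM and 141, 179, 165, 167 and 185 CPM (log2FC -0.52 ± 0.10 SE, adjusted p = 0.00163, edgeR). For Acadsb (ENSMUSG00000030861, chr7:131410601-131448944, plus strand), the dehydrogenase of short branched chains, the values were 169, 157, 156, 147 and 169.5 CPM and 124, 97.0, 129.5, 116 and 127 CPM (log2FC -0.43 ± 0.09 SE, adjusted p = 0.00336, edgeR). None of the 3 overlapped between stages, and all 3 calls held in all 10 fits. In ctrl, Echs1 was lower in all estrus libraries too, 156, 151, 179, 163 and 168 CPM against 185, 213, 238, 209 and 188 CPM (adjusted p = 0.0882, edgeR).

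Ivd and Ppara fell as well, with estrus libraries given above. Ivd measured 78.7, 66.8, 71.6, 76.3 and 78.1 CPM in FL1 diestrus (log2FC -0.36 ± 0.10 SE, adjusted p = 0.0229, edgeR), and the call was lost without FL1 estrus libraries 2 or 4 or FL1 diestrus libraries 1 or 5. Ppara (ENSMUSG00000022383, chr15:85734983-85802819, plus strand) overlapped between the FL1 stages (log2FC -0.75 ± 0.24 SE, adjusted p = 0.0423, edgeR), and its call held in 2 of 10 fits, those without FL1 diestrus library 1 or 5. Genes on the opposite strand overlap the spans of Retsat (Gm45053), Cpt1c (a RIKEN gene), Acadsb (Fgfr2) and Echs1 (Paox), and Eci2 and Plin2 share sequence near their 3' ends with Eci3 and Gm12551. With the counts of copies summed, the calls of Eci2 and Ivd between the FL1 stages were kept, and Gm12551 had 0 counts in all libraries. In all, 10 of 46 members had FL1 libraries without overlap between the stages, beside 12.2% of all genes. The plot of the other stage-called members gives all 20 libraries.

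**Figure D4:**
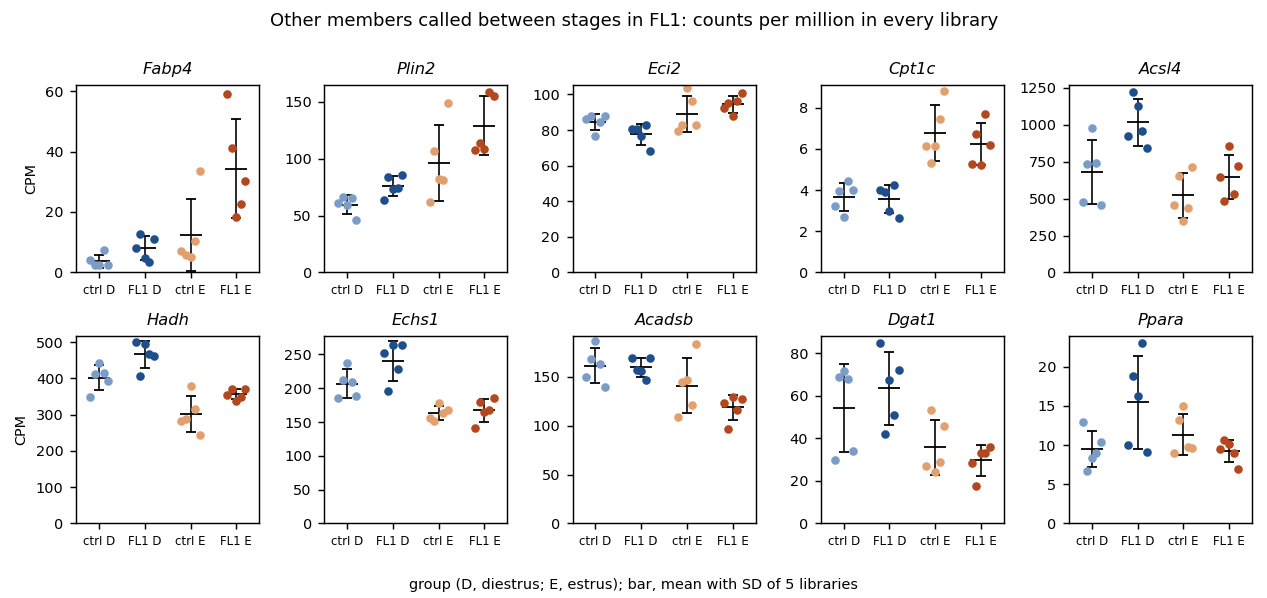
CPM (vertical axis, from 0) of 10 of the 13 members called between the stages in FL1 (the others are in the plot of the line-called members), in each library by group (horizontal axis; D, diestrus; E, estrus), with the mean and SD of 5 libraries. Hadh in FL1 lies at 339 to 371 CPM in estrus and at 408 to 499.9 CPM in diestrus, and Fabp4 and Plin2 show the opposite order.

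Cell type markers differed between the FL1 stages as well, with 34 of 71 tested called, beside 15.9% of all genes. Of the 9 luteal genes 8 were called lower in estrus and none higher, and the one not called had a log2FC of 0.19 (Akr1c18). The luteal list summed to 18814 to 36516 CPM in FL1 estrus and 37944 to 49257 CPM in FL1 diestrus. Of the endothelial genes 6 of 9 were called lower and all 9 had a negative log2FC, with sums of 271 to 345 against 439 to 553 CPM. Of the blood genes 4 of 5 were called lower and all 5 had a negative log2FC, with sums of 875 to 1668 against 1274 to 3518 CPM. Called higher in estrus were 4 of 6 surface epithelium genes and 3 of 5 smooth muscle genes, and every gene of both lists had a positive log2FC. In ctrl 1 of 9 luteal genes was called lower in estrus, and all 9 had a negative log2FC (median -0.705, against -0.86 in FL1). The list summed to 16620 to 42365 CPM in ctrl estrus and 30371 to 53075 CPM in ctrl diestrus. All 9 endothelial and all 5 blood genes were negative in ctrl too, none called by edgeR. All 5 smooth muscle genes were positive, 2 of them called, while 3 surface epithelium genes were positive and 3 negative. In the interaction 0 of 72 markers were called by edgeR, and DESeq2 called 1 endothelial gene. The part of these shifts in the members' values was not tested.

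A call in 1 stage or line only does not show that the difference depends on the other factor, and the interaction of line and stage was therefore tested in a fit of all 20 libraries. Echdc2 was the only member of 46 called (interaction 1.15 ± 0.22 on the log2 scale, SE, adjusted p = 0.0431, edgeR), 1 of 8 genes called, of 14154. Its line difference was 0.76 in estrus and -0.39 in diestrus, and its stage difference 1.63 in FL1 and 0.48 in ctrl. The call held in 8 of 20 fits with 1 library left out, at adjusted p of 0.0302 to 0.103, and was kept without the 5th ctrl estrus library. It was lost without ctrl estrus libraries 1, 3 or 4, FL1 estrus libraries 3, 4 or 5, ctrl diestrus libraries 2, 3 or 4, or FL1 diestrus libraries 1, 3 or 4. For Ppara, with line differences opposite in sign, the interaction was -0.99 ± 0.34 (SE, adjusted p = 0.24, edgeR), and for Fabp5 0.52 ± 0.32 (adjusted p = 0.545).

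Many core genes of oxidation and storage were among the 27 members called in no comparison. Cpt1a differed between the lines by -0.18 ± 0.14 in estrus and 0.06 ± 0.11 in diestrus, and between the stages by 0.06 ± 0.15 in ctrl and -0.17 ± 0.10 in FL1 (log2FC, SE). For Hadha the same 4 differences were -0.03 ± 0.11, 0.10 ± 0.07, -0.03 ± 0.11 and -0.15 ± 0.07. Without the 5th ctrl estrus library Cpt1a differed by -0.06 ± 0.12 (SE) between the lines in estrus and by -0.05 ± 0.13 (SE) between the ctrl stages, and Hadha by 0.06 ± 0.09 (SE) and -0.11 ± 0.09 (SE), so that the signs of Hadha in estrus and of Cpt1a between the ctrl stages changed. Acadl, the long-chain acyl-CoA dehydrogenase, had 4 differences between -0.06 and 0.05, and without that library 0.06 ± 0.11 (SE) in estrus and -0.08 ± 0.14 (SE) between the ctrl stages. Not called either were the transport and activation genes Fabp3, Acsl1, Acsl3 and Acsl5, Cpt2 and Slc25a20 of the carnitine shuttle, the dehydrogenases Acadvl, Acadm and Acads, the electron transfer genes Etfa, Etfb and Etfdh, and Hadhb, Decr1 and Acaa1a. Of the droplet genes, Plin3 and the lipases Pnpla2 and Mgll were not called. Plin4, a droplet coat protein, varied widely within groups, 143, 157, 97.8, 93.5 and 309.6 CPM in ctrl estrus and 29.7, 36.6, 159, 129 and 137 CPM in FL1 estrus, where the first 2 FL1 libraries were low and the 5th ctrl library high. Its line difference in estrus was -0.70 ± 0.44 with all libraries and -0.31 ± 0.40 (SE) without the 5th ctrl library, and its ctrl stage difference -0.34 ± 0.30 and -0.72 ± 0.22 (SE), none called. A p that misses the threshold does not show that these genes were equal between groups.

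Among 115 further genes of fatty acid and lipid metabolism, 98 or 97 passed the filter. This list too was chosen with earlier results of these data known. In estrus 1 of 98 (1.02%) was called between the lines, beside 2.33% of all genes. It was the long-chain acyl-CoA synthetase Acsbg1, lower in FL1 (log2FC -0.66 ± 0.14 SE, adjusted p = 0.0245, edgeR). In diestrus 5 of 97 (5.15%) were called, beside 4.11% of all genes. Acsbg1 was again lower (log2FC -0.67 ± 0.11 SE, adjusted p = 0.00272, edgeR). The mitochondrial acetyl-CoA synthetase Acss1 (0.88 ± 0.15), the ketone body enzymes Bdh1 (0.99 ± 0.24) and Oxct1 (0.37 ± 0.09) and the elongase Elovl6 (0.52 ± 0.12) were higher in FL1 (log2FC, SE). Leaving out 1 library gave 0 to 2 called genes in estrus (0 without the 1st, 2nd or 5th FL1 library, 2 without the 5th ctrl library) and 2 to 6 in diestrus (2 without the 1st or 5th FL1 library, 6 without the 3rd ctrl library).

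In both stages Acsbg1 separated the lines without overlap. It measured 451, 554, 799, 576 and 553 CPM in ctrl estrus and 333, 333, 415, 411 and 364 CPM in FL1 estrus, and 734, 792, 701, 605 and 948 CPM in ctrl diestrus and 459, 455, 484, 511 and 465.6 CPM in FL1 diestrus. Bdh1, beta-hydroxybutyrate dehydrogenase, measured 16.5, 23.4, 20.6, 24.0 and 7.68 CPM in ctrl diestrus and 42.5, 25.4, 33.5, 38.4 and 43.0 CPM in FL1 diestrus, also without overlap.

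Between the stages 2 of 97 of these further genes (2.06%) were called in ctrl, beside 2.85% of all genes. They were Pccb of propionyl-CoA carboxylase, lower in estrus (-0.55 ± 0.11), and the lysosomal lipase Lipa, higher (0.47 ± 0.11). That count was 0 without the 4th ctrl estrus or the 4th ctrl diestrus library and 5 without the 5th ctrl estrus library. In FL1 29 of 98 (29.6%) were called, 7 higher and 22 lower in estrus, beside 15.9% of all genes. The largest decreases were of the lipogenic regulator Thrsp (-2.11 ± 0.45), the cytosolic acetyl-CoA synthetase Acss2 (-1.19 ± 0.27) and the elongase Elovl5 (-1.10 ± 0.12). The largest increases were of Angptl4, an inhibitor of lipoprotein lipase (0.64 ± 0.09), the sterol carrier Scp2 (0.55 ± 0.15) and the droplet protein Hilpda (0.45 ± 0.13, all log2FC with SE). Of the 25 tested genes of triglyceride synthesis and lipogenesis, 8 fell and none rose by edgeR, and of 13 tested peroxisomal genes 3 fell and 1 rose. In the interaction 0 of 98 were called by edgeR, with 13 at an unadjusted p of less than 0.05, 2 called by DESeq2 and 1 by limma-voom. The 2 line comparisons share no library with each other, but each shares its libraries with the stage comparisons.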

How the data were processed

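Ovarian total RNA of 20 mice was made into QuantSeq 3' mRNA-Seq libraries. Per the study's methods and the labels, trimmed reads were mapped to GRCm38 by STAR, and the authors deposited raw counts per Ensembl gene, the only unit used. Whether counting used strand is not given in the sources used here. Libraries of 1 group are different animals, and none of 40 pairs within a group was a duplicate (chi-square per gene 6.32 to 46.6). The 47 members, their roles and the other gene lists were chosen with earlier results of these data known.

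Each comparison was fitted on its own 10 libraries (the interaction on all 20) with edgeR 4.0.16 (quasi-likelihood test, TMM factors, filterByExpr with a minimum count of 10) in R 4.3.3. P-values were adjusted over all genes tested by Benjamini-Hochberg, with a threshold of 0.05. Alternatives were DESeq2 1.42.0, limma 3.58.1 (voom with sample weights), other filters and factors and 1 fit of all libraries. A replicate block, summed copies and leaving out each library were further alternatives. The fits were tested on simulated counts. Members given in full are those called in a comparison, the PPAR genes and those with the highest and lowest log2FC; Plin4, Cpt1a, Hadha and Acadl were chosen after their values were seen. The depth of 5991223 to 10352718 counts limits genes of a few CPM.

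Genes sharing 50 or more 31-base words within 300 bases of their 3' ends were taken as copies. Promoter windows and starts are from RefSeq.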

Additional observations from a re-analysis of the deposited data

Results flagged for a closer look

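Single libraries stood far from the other 4 of their group in 2 of 92 groups looked at (23 members in 4 groups), where chance gives about 1 in 20. For Fabp4 in ctrl estrus the highest library, the 5th, measured 33.6 CPM and the others 5.22 to 10.5 CPM. For Cd36 in FL1 estrus the lowest library, the 3rd, measured 15.1 CPM and the others 25.3 to 27.5 CPM. The line difference of Echdc2 differed between the stages, by 1.15 on the log2 scale (adjusted p = 0.0431, edgeR).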

How the results depend on the processing

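The 26 member calls kept their direction under every alternative. All 26 stayed past the threshold with RLE factors, with DESeq2 and with at least 10 counts in every library, 24 did with limma-voom, 23 with no filter beyond 1 count, 22 of 25 in 1 fit of all 20 libraries, 25 with copies summed and 175 of 270 when 1 library was left out. Causes were not tested. In diestrus between the lines 9 members were called by DESeq2 and 9 without the filter, and other pathway genes 10 by DESeq2, 8 by limma-voom and 8 without the filter. In estrus 2 other pathway genes were called by DESeq2 and 2 in 1 fit. Between the ctrl stages DESeq2 called 8 members, limma-voom 6, no filter 4 and 1 fit 9, and other pathway genes 6 by limma-voom, 4 without the filter and 6 in 1 fit. In the interaction DESeq2 called 2 other pathway genes and limma-voom 1. Fabp4, not called between the lines in estrus, passed the threshold there with limma-voom and without the filter. Between the ctrl stages it did so with DESeq2, without the filter and in 1 fit.

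Same-numbered libraries did not pair (correlations of deviations -0.0953 to 0.126, highest with the own number in 1, 1, 1 and 2 of 5). With the replicate block 18 of 26 calls stayed, with 3 members in estrus between the lines, 0 between the ctrl stages (13 at an unadjusted p of less than 0.05, edgeR) and 1 other pathway gene there.

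Leaving out 1 library gave 0 to 7 members and 0 to 2 other genes in estrus, 2 to 8 and 2 to 6 in diestrus, 0 to 3 and 0 to 5 between the ctrl stages, 9 to 14 and 24 to 30 between the FL1 stages, and 0 to 1 and 0 to 0 in the interaction.

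Differences near 0 reversed. Ppard in estrus was -0.01, but 0.055 with limma-voom, 0.0017 with 10 counts in every library and -0.094 to 0.091 when 1 library was left out. In diestrus Ppard was 0.03, -0.0215 with limma-voom and -0.13 to 0.16 with 1 library left out. Pparg in diestrus was -0.10 and ranged from -0.20 to 0.062. Ppargc1a between the ctrl stages was 0.16, -0.46 with limma-voom, -0.13 with the replicate block and -0.52 (without the 5th ctrl estrus library) to 0.42. Between the FL1 stages it was -0.02 and ranged from -0.39 to 0.31.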
